A study of Mus musculus with 6 samples.

Results

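Clock output genes carry the daily rhythm of the liver clock into metabolism, and 9 of them were followed here: the PAR bZIP activators Dbp, Tef and Hlf, the bZIP repressor Nfil3, the BHLHE repressors Bhlhe40 and Bhlhe41, and the enzymes Usp2, Upp2 and Tars, grouped as rhythmic enzymes of the liver. Each probe set whose single gene symbol in the array annotation was 1 of these names was taken. This gave 17 probe sets for the 9 genes, out of 45037 probe sets and 18193 genes. The genes were chosen by name, with no measured value in the rule, but with earlier results of these data known. The counts and shares below therefore describe these genes and are no test of the group.

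Whole-liver RNA of 6 male mice aged 12 weeks was measured, with 1 Affymetrix mouse genome array per mouse. All mice were FRG mice on a C57Bl/6J background, which carry the knockouts Fah-/-, Rag2-/- and Il2rg-/-. They lack the last enzyme of tyrosine breakdown, and they also lack mature T, B and NK cells, so that no group stands for an intact or wild-type liver. The 3 FRG+NTBC mice drank water with 16 mg/L of NTBC throughout. NTBC (nitisinone) blocks an enzyme upstream of Fah. The 3 FRG-7dNTBC mice had the same treatment until it was stopped, and were taken 7 days later. All were kept in a cycle of 14 hours of light and 10 hours of dark on a chow low in tyrosine and phenylalanine, and were anaesthetised with ketamine and xylazine before the liver was taken. The hour at which each liver was taken is not given in the sources used here. Each mouse gave 1 liver sample, so a shift in the timing of a rhythm and a change in its mean level cannot be told apart in these data.

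The liver clock is a feedback loop in which CLOCK and BMAL1 (gene Arntl) bind E-box elements and switch on their own inhibitors, the Per, Cry and Nr1d genes. The same loop drives Dbp, Tef and Hlf, whose proteins bind D-box elements and switch on genes of drug, heme and bile acid metabolism. Nfil3 (also called E4BP4) binds the same elements and represses, while Bhlhe40 and Bhlhe41 (DEC1 and DEC2) bind E-boxes and oppose CLOCK and BMAL1.

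Dbp had the largest fall among the transcription factors here, and Tef was the member with letters matching both element types. Their promoter windows are therefore shown. They are the 250 bases before an annotated transcript start, from RefSeq (GRCm38.p6, given 5′ to 3′ on the gene's strand, which is + for both genes). Capitals mark a match, on either strand, to the D-box letters TTANNTAA (N stands for any base) or the E-box letters CACGTG.
Dbp, chr7:45704997-45705246: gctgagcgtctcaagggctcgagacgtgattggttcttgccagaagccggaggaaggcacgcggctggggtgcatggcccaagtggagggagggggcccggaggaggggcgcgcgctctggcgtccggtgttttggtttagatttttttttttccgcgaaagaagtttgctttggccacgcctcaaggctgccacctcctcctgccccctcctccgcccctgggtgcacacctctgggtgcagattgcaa
Tef, first start, chr15:81802423-81802672: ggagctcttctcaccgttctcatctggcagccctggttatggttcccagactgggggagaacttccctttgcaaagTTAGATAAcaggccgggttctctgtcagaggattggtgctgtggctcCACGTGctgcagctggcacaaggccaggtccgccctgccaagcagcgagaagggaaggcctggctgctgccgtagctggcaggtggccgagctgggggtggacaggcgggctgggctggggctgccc
Tef, second start, chr15:81811164-81811413: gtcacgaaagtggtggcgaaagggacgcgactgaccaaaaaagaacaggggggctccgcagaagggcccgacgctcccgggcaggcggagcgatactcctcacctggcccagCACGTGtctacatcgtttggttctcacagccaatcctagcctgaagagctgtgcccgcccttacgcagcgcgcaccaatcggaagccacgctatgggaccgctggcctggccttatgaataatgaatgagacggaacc

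The first Tef window holds a match to the D-box letters (TTAGATAA) that begins 174 bases before the start. The middle letters were left free in this search, so the match need not be a site that PAR bZIP proteins bind. An E-box match begins 127 bases before the same start, and the second window holds one 138 bases before its start. Windows were found for 8 of the 9 genes, with 10 windows in all, and each was searched over 250 bases before and 50 bases after its start. E-box letters stood in 4 of these windows (both of Tef, 1 of Bhlhe41 and 1 of Tars), against 7.15% of all 32851 windows of this length, and D-box letters in 1, against 6% of all windows. The longer ROR element, the kind bound by the clock's ROR and REV-ERB receptors, matched none of them and 0.219% of all windows. Such a match describes the letters only, and its absence in a window of this size says nothing of the factor.

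Before the members, the arrays were checked. Of 7 measured hepatocyte markers all but Ass1, whose probe set was below the median of all 3 FRG-7dNTBC arrays, stood above the array's median in every mouse, with albumin (Alb) at a mean intensity of 25775 in FRG+NTBC and 27306 in FRG-7dNTBC livers. The summed intensity of the 7 measured hepatocyte markers was 99059 to 101507 with NTBC and 90683 to 96346 without. Most of this sum is Alb, Ttr and Apoa1, which lie near the highest intensity of the arrays (29532). The sum therefore does not measure the hepatocyte content of the livers. The drug's target Hpd fell by 1.10 on the log2 scale, and the Fah probe set, which does not check the labels since both groups carry the knockout, fell by 1.07. Rag2 was below the array's median on all 6 arrays, and Il2rg was not analysed here. Array medians were 35.3 to 36.5 in FRG+NTBC and 33.1 to 34.3 in FRG-7dNTBC mice. The log2 values of 2 arrays correlated across probe sets at 0.98 or more within a group and at 0.93 to 0.955 between the groups.

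Of the 9 genes, 6 were lower in FRG-7dNTBC livers and none was higher when each was read at its brightest probe set (highest mean log2 intensity over the 6 arrays). The lower genes were Dbp, Tef, Hlf, Bhlhe40, Usp2 and Upp2, each by over 2-fold, a size of fall found for 4.95% of all genes, while Nfil3, Bhlhe41 and Tars did not pass. A gene passed at an adjusted p under 0.05 from limma, with Benjamini-Hochberg adjustment over all probe sets of the array. Among all 18193 genes, 12.7% were lower by this rule and 17.4% were higher. The same shares stand beside the counts of the other gene lists below. Counted by probe set, 12 of 17 were lower and 0 were higher, beside 13.9% lower and 14% higher of all probe sets. No member probe set was higher at an unadjusted p under 0.05 from limma either. At least 2-fold falls were found at 12 of 17 member probe sets and at 5.12% of all, and at least 5-fold falls at 7 and at 0.637%. The median log2 fold change was -1.69 over the 9 genes and -0.05 over all genes.

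At each of the 12 lower probe sets the mice of both groups did not overlap. The smallest separation was that of Bhlhe40, where the lowest FRG+NTBC mouse was 2.10 times the highest FRG-7dNTBC mouse. Over all probe sets, 25.5% had each FRG-7dNTBC mouse below each FRG+NTBC mouse. An exact permutation test of a single probe set cannot go below 0.1 with 3 mice a group, and each of these 12 reached that value. Less RNA per cell and fewer cells of a type cannot be told apart in whole liver.

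**Figure D1:**
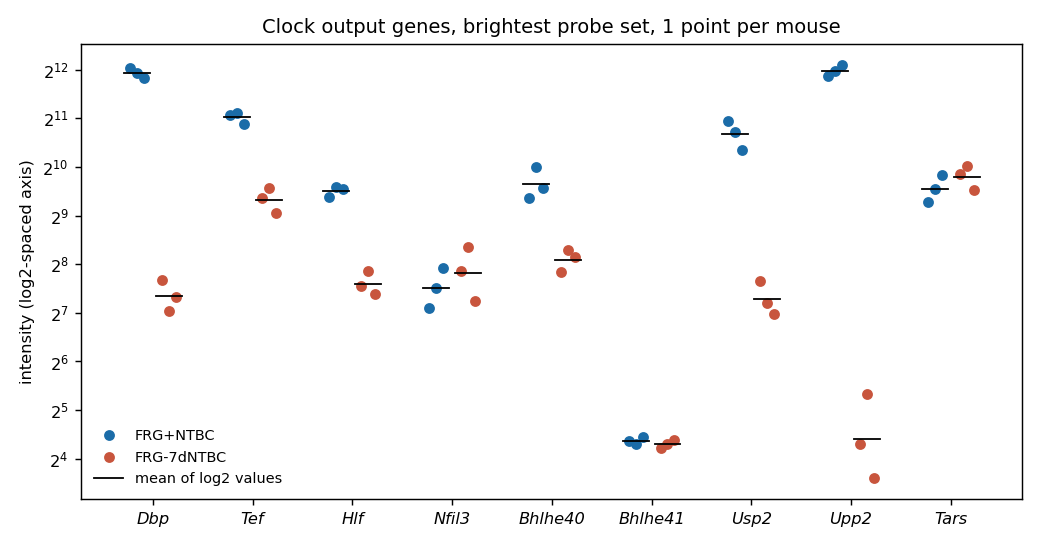
Intensity of each gene at its brightest probe set (vertical axis, spaced by log2), with 1 point per mouse, blue for FRG+NTBC and red for FRG-7dNTBC, and a line at the mean of the log2 values of 3 mice. The groups lie apart for Dbp, Tef, Hlf, Bhlhe40, Usp2 and Upp2 and overlap for Nfil3, Bhlhe41 and Tars.

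Dbp, named for its binding to the albumin D-box, fell furthest of the 3 PAR bZIP activators. At its brightest probe set (1438211_s_at) its intensity was 4182, 3902 and 3616 in the FRG+NTBC mice and 204, 131 and 160 in the FRG-7dNTBC mice. The lowest mouse on NTBC thus stood 17.8 times above the highest mouse without it. This is a fall of 24.0-fold, or -4.59 on the log2 scale (SE 0.18, limma adjusted p = 8.04e-06). Only 25 of the 45037 probe sets had a larger fall. The other Dbp probe set (1418174_at) gave 1333, 1351 and 1296 with NTBC and 91.8, 85.6 and 53.1 without, which is 17.8-fold lower. Under NTBC the 3 mice were close at this probe set, the highest being 1.04 times the lowest, while after withdrawal they spread over 1.73 times.

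Tef, the thyrotroph embryonic factor, was lower at 2 of its 3 probe sets. The brightest (1424175_at) read 2135, 2210 and 1885 in FRG+NTBC mice and 653, 755 and 534 in FRG-7dNTBC mice, without overlap. Tef therefore fell 3.23-fold here (-1.69 on the log2 scale, SE 0.16, limma adjusted p = 0.000258), and 3.88-fold at a dimmer probe set (1438033_at). There the FRG-7dNTBC mice read 36.8, 36.5 and 40.8, just above those arrays' medians of 33.1 to 34.3, so the size of this fall is not exact. The remaining probe set (1450184_s_at) stood at 99.0 ± 17.6 and 96.6 ± 28.1 (SD, n = 3 mice per group), with overlapping groups and a log2 fold change of -0.06 (limma adjusted p = 0.876). Its name ends in _s_at, which Affymetrix uses for probe sets that can match several transcripts, and the annotation gives only Tef. The 3 probe sets of Tef thus disagree, and the array annotation used here does not say which transcript start each one follows.

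Hlf, the hepatic leukemia factor, was lower at both of its probe sets. The brightest (1434736_at) had 662, 771 and 744 with NTBC and 187, 232 and 168 without. The fall was 3.73-fold (-1.90 on the log2 scale, SE 0.15, limma adjusted p = 0.00015). At the other (1434735_at) the mice of each group lay within 1.09 and 1.05 times of each other, at 350, 383 and 367 against 81.6, 82.1 and 78.2, and the fall was 4.54-fold.

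The activators were set against each other in pairs picked after their values were seen, and no pair passed. The log2 intensities of each pair were subtracted within each mouse, and the means of the unpaired groups were compared. The log2 fold change of Dbp thus lay below that of Tef, with a difference of -2.89 (SE 0.28). It also lay below that of Hlf, with a difference of -2.69 (SE 0.31), and the groups overlapped in neither difference. Hlf and Tef differed by -0.21 (SE 0.11), and the groups overlapped. In the exact permutation test the first and second of these had p = 0.1, the smallest it can give, and the last p = 0.2. Over the 6 pairs of members compared, the adjusted values were 0.12, 0.12 and 0.2. Probe sets of a single gene also differed in fold, as at Tef.

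**Figure D2:**
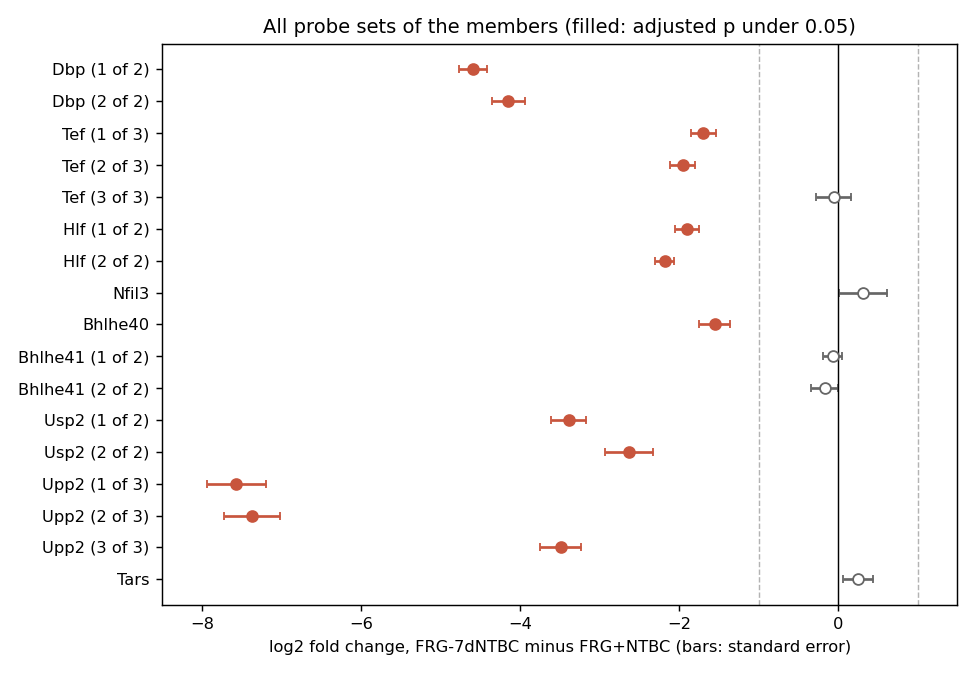
Horizontal axis, the log2 fold change after withdrawal (FRG-7dNTBC over FRG+NTBC) of each of the 17 member probe sets with its standard error from limma, ordered by role, and by brightness first within a gene. Filled points passed at an adjusted p under 0.05 (12, all below -1, the dashed line of a 2-fold fall), and open points did not: the third probe set of Tef, Nfil3, both probe sets of Bhlhe41, and Tars.

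Nfil3, the repressor that competes with the PAR bZIP proteins for D-boxes, did not pass. Its only probe set (1418932_at) read 136, 181 and 242 in FRG+NTBC mice and 231, 329 and 152 in FRG-7dNTBC mice. The groups overlapped, FRG-7dNTBC replicate 2 being highest and FRG+NTBC replicate 1 lowest. The log2 fold change came to 0.32 (SE 0.30, limma adjusted p = 0.479). It ranged from 0.05 without FRG-7dNTBC replicate 2 to 0.60 without FRG-7dNTBC replicate 3.

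Bhlhe40, a repressor of E-box genes that also answers to many other signals, fell 2.93-fold. Its probe set (1418025_at) had 657, 1024 and 760 with NTBC and 229, 313 and 282 without (-1.55 on the log2 scale, SE 0.20, limma adjusted p = 0.000916). The FRG+NTBC mice varied more here than at Dbp or Hlf, the highest being 1.56 times the lowest, and all 3 lay above each FRG-7dNTBC mouse. Its relative Bhlhe41 was dim. The brighter of its probe sets (1421099_at) stood at 20.7 ± 0.937 and 19.8 ± 1.17 (SD, n = 3 mice per group), and both probe sets lay below the array's median on all 6 arrays. Values this low do not show whether Bhlhe41 changed (-0.07 on the log2 scale, SE 0.12, limma adjusted p = 0.713). After quantile normalization of the deposited values the sign of its log2 fold change turned, to 0.04. The log2 fold changes of Nfil3 and Bhlhe40 differed by 1.87 (SE 0.40). With their log2 intensities subtracted within each mouse, the groups did not overlap (exact permutation p = 0.1, or 0.12 over the 6 pairs).

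Usp2, a deubiquitinase whose liver transcript follows the clock, fell 10.5-fold at its brightest probe set (1417169_at). The FRG+NTBC mice had 1965, 1687 and 1305 and the FRG-7dNTBC mice 201, 148 and 126. Each mouse without NTBC thus lay at least 6.50 times below each mouse with it (-3.39 on the log2 scale, SE 0.21, limma adjusted p = 5.94e-05). The other probe set (1417168_a_at) read 855, 545 and 461 against 140, 91.8 and 70.5 and fell 6.19-fold. At both, replicate 1 was the highest mouse of its group and replicate 3 the lowest, in FRG+NTBC as in FRG-7dNTBC. The numbers are not stated to pair the mice.

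Upp2, the uridine phosphorylase of the liver, which splits uridine into uracil and ribose phosphate, had 1 of the largest falls of the array, with only 2 probe sets falling further. At its brightest probe set (1424969_s_at) the FRG+NTBC mice had 3717, 4040 and 4390, and the FRG-7dNTBC mice 19.8, 40.2 and 12.1. The log2 fold change came to -7.57 (SE 0.37, limma adjusted p = 2.42e-05). In 2 of the 3 FRG-7dNTBC mice this is below the array's median, and at the 2 other probe sets it is so in all 3, so that the size of the fall is not exact. Those probe sets read 1663, 1992 and 2557 against 9.92, 22.6 and 8.40 (1451548_at, 165-fold) and 113, 93.0 and 160 against 14.1, 7.89 and 10.6 (1460059_at, 11.2-fold). FRG-7dNTBC replicate 2 kept the highest Upp2 signal after withdrawal at the first pair of probe sets, but the lowest at the third. For pairs of members, log2 intensities were again subtracted within each mouse and the group means compared. The log2 fold change of Upp2 lay below that of Usp2 (difference -4.18, SE 0.55, no overlap), and that of Usp2 was 1.20 above that of Dbp (SE 0.19, no overlap). Both had an exact permutation p of 0.1, or 0.12 over the 6 pairs.

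Upp2 acts beside other enzymes of pyrimidine salvage and breakdown, and of 13 such genes measured 4 were higher and 3 lower, and the median of their log2 fold changes was 0.25. The next enzymes of uracil breakdown, dihydropyrimidine dehydrogenase (Dpyd) and dihydropyrimidinase (Dpys), fell by 2.12 and 1.61 on the log2 scale, while the last enzyme of that route, Upb1, stood at -0.31 with overlapping groups (limma adjusted p = 0.325). Thymidine kinase 1 (Tk1) fell by 2.87, a size that is not exact because 2 of the 3 FRG-7dNTBC mice were below the array's median. Cytidine deaminase (Cda), which makes uridine from cytidine, rose by 1.88. Upp1, the uridine phosphorylase of most other tissues, rose from 58.6 ± 17.6 to 127 ± 31.0 (SD, n = 3 mice per group), or 1.13 on the log2 scale (SE 0.25, limma adjusted p = 0.0113). Its direction was thus opposite to that of Upp2.

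Tars, the threonyl-tRNA synthetase of the cytosol, did not pass. Its probe set (1460323_at) had 617, 750 and 910 with NTBC and 923, 1031 and 739 without, with overlapping groups (0.25 on the log2 scale, SE 0.19, limma adjusted p = 0.368). Of 18 other cytosolic aminoacyl-tRNA synthetases measured, which charge tRNAs with the other amino acids, 5 were higher and 0 lower by limma, and the median of their log2 fold changes was 0.24. The largest rises were those of Gars (1.57) and Rars (1.28). After scaling to the 75th percentile, after quantile normalization and with array weights 2 of them were lower. Without FRG+NTBC replicate 2, as without moderation of the variances, 3 were higher.

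Among the 12 probe sets that fell, FRG-7dNTBC replicate 3 was the lowest mouse of its group at 8, replicate 2 at 3 and replicate 1 at 1. In the FRG+NTBC group replicate 2 was the highest at 6, and replicates 1 and 3 at 3 each. Leaving out any 1 mouse left 6 of the 9 genes and 12 of the 17 probe sets lower and none higher.

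The core clock genes, which drive these outputs, moved both ways. Of 14 measured, 4 were higher and 6 lower, and the median of their log2 fold changes was -0.32. The activator Arntl rose from 39.7, 40.5 and 41.4 in FRG+NTBC to 107, 108 and 95.0 in FRG-7dNTBC mice (1.35 on the log2 scale, SE 0.12, limma adjusted p = 0.000199). Its FRG+NTBC values stood just above those arrays' medians of 35.3 to 36.5, so the size of the rise is not exact. Clock, the partner of Arntl, rose by 1.83. Among the inhibitors of the loop, Per3 fell by 2.91, Per2 by 1.79, Per1 by 0.90 and Nr1d1, the gene of REV-ERB alpha, by 0.93, while Cry1 rose by 0.63. The size for Per2 is not exact, as 1 of the 3 FRG-7dNTBC mice was below the array's median. Per3 was 474, 282 and 304 with NTBC and 52.4, 44.9 and 41.1 without. The genes that rose thus included those of both CLOCK and BMAL1. The genes that fell, with Nr1d2 and Ciart as the others, are known as genes that the loop's activators switch on, as are Dbp, Tef, Hlf and Usp2, and so is Cry1, which rose. The fourth gene that rose was the casein kinase gene Csnk1e. Without FRG+NTBC replicate 2, and without moderation of the variances, 3 core clock genes were lower. With probe sets that can match several transcripts left out, 2 were higher. Of the genes that rose, Arntl (1425099_a_at) and Cry1 (1433733_a_at) were read at such probe sets.

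**Figure D3:**
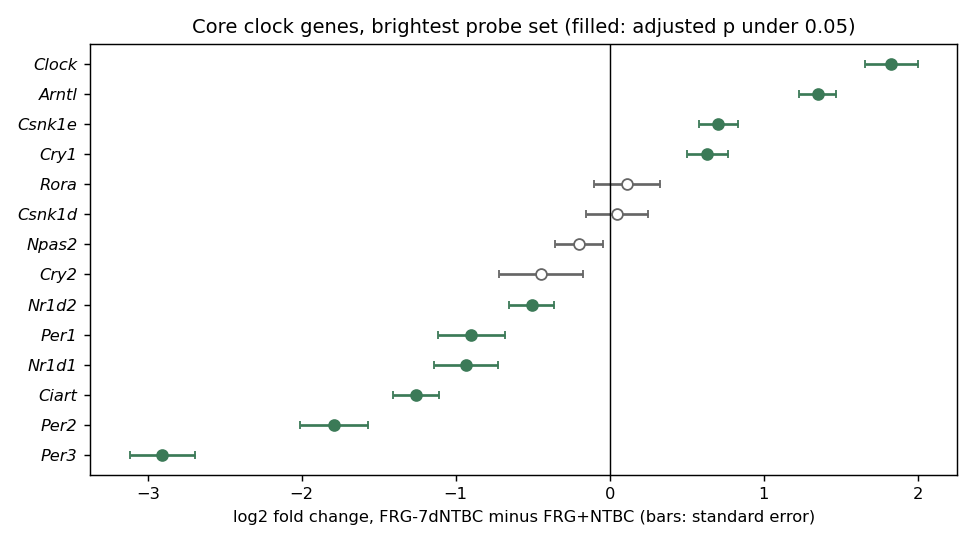
Horizontal axis, the log2 fold change after withdrawal (FRG-7dNTBC over FRG+NTBC) of the 14 measured core clock genes at their brightest probe sets, with standard errors from limma, in order of size. Filled points passed at an adjusted p under 0.05, 4 on the higher side, among them Clock and Arntl, and 6 on the lower side, with Per3 lowest.

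Genes listed here as switched on through D-boxes did not all fall with the PAR bZIP activators. The list was written from general knowledge, and some of its entries are less certain as direct targets. Of 14 measured, 6 were lower and 5 higher, with a median log2 fold change of -0.83, and 6 of the 14 are core clock genes as well. Of the 8 outside the core clock list 4 were higher (Fgf21, Abcb1a, Alas1 and Cyp2b10) and 2 lower (Cyp2c50 and Cyp7a1), and the median of the 8 was 0.86. The 4 other lower genes, Per1, Per2, Per3 and Nr1d1, were counted among the clock genes already. Cyp7a1, the rate-limiting enzyme of bile acid synthesis, was 2241, 2180 and 3350 with NTBC and 118, 165 and 100.4 without, or -4.34 on the log2 scale (SE 0.23, limma adjusted p = 3.12e-05). The P450 gene Cyp2c50, which is less certain as a direct D-box target, fell by 4.48, at a probe set that may also catch its near-identical relatives. In the other direction, Fgf21 rose by 2.75. Alas1, the first enzyme of heme synthesis, which answers to heme as well as to PAR bZIP proteins, was 1438, 617 and 313 with NTBC and 5480, 3848 and 2557 without (2.53 on the log2 scale, SE 0.51, limma adjusted p = 0.00803).

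The log2 values of Dbp across the 6 arrays were most like those of Utf1, Gckr and Vps37a, with Pearson correlations of 0.9999, 0.9992 and 0.9986 over their brightest probe sets. This measure takes no account of size, and their log2 fold changes were -0.39, -4.23 and -1.27. All 6 points come from the same arrays and fall into the 2 groups, and 353 of 18192 genes correlated with Dbp at over 0.98.

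Markers of other cells were counted by the same rule, by which 17.4% of all genes were higher and 12.7% lower. Of 10 macrophage and Kupffer cell markers 6 were higher and 0 lower, with a summed intensity of 1914 to 2915 in FRG+NTBC and 2435 to 6120 in FRG-7dNTBC livers. Of 8 endothelial markers 2 were higher, at sums of 1465 to 2412 and 2510 to 3280. Of 8 stellate and 6 cholangiocyte markers 1 each was higher, which is near the share of all genes. Their sums were 2823 to 4388 and 2983 to 6466, and 218 to 260 and 204 to 395. None of 9 neutrophil and of 8 T, B and NK cell markers passed, at sums of 286 to 377 and 265 to 378 for the former and of 303 to 332 and 298 to 305 for the latter. Of the 7 hepatocyte markers 3 were lower (Cps1, Tat and Ass1), while Alb, the transthyretin gene Ttr and Apoa1 had log2 fold changes of 0.08, -0.01 and -0.08. Ass1 was read at a probe set below the array's median in all 3 FRG-7dNTBC mice, so the size of its fall is not exact. The part of these shifts in the values of the clock output genes was not tested.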

How the data were processed

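Total RNA of 6 FRG livers was amplified and hybridised to Affymetrix mouse genome arrays, 1 per mouse. The authors made the deposited intensity values by Robust Multiarray Analysis, that is background correction, normalization by quantiles and median polish. The Transcriptome Analysis Console is the tool in the submitters' processing notes. Values are linear, from 3.84 to 29532, and their log2 was taken here without a pseudocount. Quantile normalization and median polish set the scale. Folds of bright and dim probe sets on arrays can be compressed.

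Names come from the array annotation, where 34945 probe sets have 1 symbol, 932 several (none with a member) and 9160 none. Groups, taken from the labels, were set against each other with limma 3.58.1 (lmFit, eBayes; R 4.3.3), without covariates, adjusted by Benjamini-Hochberg over 45037 probe sets, with no filter on low values. The fit was tested on simulated data first. A gene was represented by its brightest probe set. Per the labels the mice of a group are biological replicates. The p-values from limma rest on the spread between these mice, moderated toward that of all probe sets. The number of arrays, 3 per group, limits the precision.

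Named were all members, up to 4 passing genes per list with the largest change, Arntl, Nr1d1, Per1, Cry1, the 3 genes most like Dbp, and Fah, Rag2, Il2rg and Hpd. Pairs of members, Upp1, Upb1, Alas1, Abcb1a, Cyp2b10, Nr1d2, Ciart, Csnk1e and the hepatocyte markers that did not pass were picked once values had been seen. The members and lists were chosen with earlier results of these data known. Some listed genes are not reported here. Promoter letters come from RefSeq (GRCm38.p6). Alternatives were 75th percentile scaling, quantile normalization, leaving out dim probe sets or those that can match several transcripts, no moderation, trended and robust moderation, array weights, the replicate block, each mouse left out, and the mean over a gene's probe sets.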

Additional observations from a re-analysis of the deposited data

How the results depend on the processing

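In each of the 15 alternatives 6 member genes were lower and 0 higher, and the log2 fold changes of Dbp (-4.75 to -4.15), Tef (-1.86 to -1.24), Hlf (-2.07 to -1.80), Bhlhe40 (-1.78 to -1.37), Usp2 (-3.57 to -3.01) and Upp2 (-8.02 to -6.14) kept their sign, with adjusted p-values of at most 0.0308. Lower member probe sets numbered 9 to 12, with 9 where probe sets that can match several transcripts were left out, which also left fewer to test. Nfil3 and Tars did not pass in any alternative, at 0.05 to 0.60 and 0.05 to 0.39. Bhlhe41 turned from -0.07 to 0.0389 after quantile normalization, without passing, and was left out with the dim probe sets. Scaling to the 75th percentile moved the array-wide median by -0.13 (log2). With the replicate block, 6 member genes and 12 probe sets were lower, with Dbp at -4.59. Whether the numbers pair the mice cannot be settled with 3 mice per group. Deviations of mice with the same number correlated at 0.11, 0.03 and -0.16, and 1 of 3 FRG+NTBC mice correlated best with its own number. Rhythmic liver transcripts had 3 members higher without moderation of the variances, against 6. The cause of these moves was not tested. Dimness limits Bhlhe41, the withdrawal values of Upp2, Tk1, Elovl3 and Per2, and the NTBC values of Pdk4 and Arntl.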

Other observations

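Other liver transcripts known to be rhythmic moved both ways as well. Of 19 measured, 6 were higher and 5 lower in FRG-7dNTBC livers, with a median log2 fold change of 0.16 beside -0.05 over all genes. Elovl3, a fatty acid elongase, fell to 33.7 ± 8.48 from 923 ± 411 intensity units (SD, n = 3), or -4.68 on the log2 scale (SE 0.38, limma adjusted p = 0.000145). The size of this fall is not exact, as 1 of the 3 FRG-7dNTBC mice was below the array's median. The transcriptional cofactor gene Hes6 fell by 3.40. Pdk4, a kinase that holds back glucose oxidation, rose from 31.9 ± 6.07 to 750 ± 395 (4.45 on the log2 scale, SE 0.33, limma adjusted p = 0.000109; 2 of the 3 FRG+NTBC mice were below the array's median, so the size is not exact), and the tubulin gene Tubb2a rose by 4.09.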
